A study of Mus musculus with 4 samples.

Results

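Prostaglandins are made from arachidonic acid and act on G protein-coupled receptors, and 9 genes of that route are described here across the cells of mouse kidneys: the cyclooxygenases Ptgs1 (ENSMUSG00000047250) and Ptgs2 (ENSMUSG00000032487), the terminal synthases Ptges (ENSMUSG00000050737), Hpgds (ENSMUSG00000029919) and Ptgds (ENSMUSG00000015090), the degrading enzyme Hpgd (ENSMUSG00000031613), and the prostaglandin E2 receptors Ptger1 (ENSMUSG00000019464), Ptger3 (ENSMUSG00000040016) and Ptger4 (ENSMUSG00000039942). They were chosen by symbol, from 57132 genes listed in the deposited count matrices. The series holds 4 droplet single-cell libraries of dissociated wild type kidneys taken after induction of contrast-induced acute kidney injury (CIAKI), an injury caused by radiographic contrast agent. All 4 libraries carry the same genotype, treatment, tissue and batch label, and the submitters call them biological replicates, so each is called a mouse here. The contrast agent, its dose, the time after induction, and the age and sex of the mice are not given in the sources used here. With 1 group and no uninjured kidney, every comparison is between cell classes within the same 4 mice, and none measures an effect of the injury.

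After filtering, 7085, 8751, 12903 and 12091 cells remained in mice 1 to 4, with median depths of 5549, 5780, 5655 and 2077 UMIs (unique molecular identifiers) per cell. Clustering was run without any prostaglandin or leukotriene gene and gave 46 clusters, of which 35 were named from marker genes into 19 classes, each written as "-like" because the name rests on markers. The other 11 clusters, with 4975 cells, stayed unnamed and entered no comparison. Markers named the classes, so their levels describe the classes and do not test the names. Slc12a1, the sodium-potassium-chloride cotransporter of the thick ascending limb, averaged 4134 ± 3111 CPM in its class (SD, n = 4), against a median of 14.1 CPM over the classes. Aqp2, the water channel of principal cells, averaged 4489 ± 2778 CPM in its class, against a median of 6.95 CPM. Not every listed marker was high: Wfdc15b averaged 1.63 ± 1.38 CPM in the parietal epithelium-like class, against a median of 3.96 CPM. No cluster was named as injured proximal tubule, lymphatic endothelium, mast cells, platelets or erythroid cells. A cluster took only the type with the largest share of its markers, so the proximal tubule-like class can hold injured cells. Its cluster 27, with 519 cells of mouse 3, had Krt20 among its leading genes, which is on the injured proximal tubule marker list. Mouse 3 held its macrophage-like, monocyte-like and endothelial-like cells almost wholly in clusters of its own (clusters 7, 10 and 19). Of its neutrophil-like cells, 844 were in cluster 18 and 125 in cluster 39, both marked by Camp, Ngp and Ltf. The other mice held theirs mostly in clusters 0 and 1. Mouse 4 also had clusters mostly of its own: 1694 of 2088 cells in endothelial-like cluster 5 and 1688 of 1878 in macrophage-like cluster 6. It gave 2064 of 2092 and 1323 of 1335 cells of T lymphocyte-like clusters 4 and 9. Dendritic-like cells were mostly in cluster 23 in mouse 4 (610 cells) and cluster 28 in mouse 3 (399 cells). Proximal tubule-like clusters 13 and 27 were mostly of mouse 4 and mouse 3. Values within these classes therefore compare different clusters between mice. The largest unnamed cluster, cluster 2, carried 9 endothelial markers, and 2804 of its 2824 cells came from mouse 3. Its name was barred by 1 leading gene, Akap12, which is on the parietal epithelium marker list. At the coarser clustering resolution of 0.5, an endothelial-like cluster held 3626 cells of mouse 3. Mice 1, 2 and 3 shared 23 to 54 cell barcodes per pair, whereas mouse 4 shared 0, 0 and 1 with them. Levels below are CPM, the UMIs of a gene summed over the cells of 1 class in 1 mouse and scaled to 1000000 UMIs of all genes. They are given as mean ± SD over 4 mice and are compared between classes for the same gene.

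In the pathway, cyclooxygenases turn arachidonic acid into prostaglandin H2, and terminal synthases turn that into prostaglandin E2 or D2. In the kidney, cyclooxygenase 1 is known from the collecting duct and cyclooxygenase 2 from the macula densa and interstitium, and prostaglandin E2 acts on salt and water transport through EP receptors along the distal nephron. Neutrophils, monocytes and macrophages make prostanoids during inflammation, and 15-hydroxyprostaglandin dehydrogenase, the product of Hpgd, starts their breakdown.

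The 250 bases before the annotated start of 4 of the genes are printed because their levels set apart the cell classes described below: Ptgs1 and Ptgs2 catalyse the same step and were highest in different cells, and Hpgds and Hpgd were both highest in macrophage-like cells. They come from RefSeq promoter entries on mouse build GRCm38.p6, which held 8 of the 9 genes (Ptger1 had no entry). Ptgs1 lies at chr2:36230176-36230425 on the plus strand, Ptgs2 at chr1:150099781-150100030 on the plus strand, Hpgds at chr6:65144731-65144980 on the minus strand and Hpgd at chr8:56294302-56294551 on the plus strand. All are written 5′ to 3′ on the gene's strand, and capitals mark matches to any of 5 motifs searched on both strands.
Ptgs1: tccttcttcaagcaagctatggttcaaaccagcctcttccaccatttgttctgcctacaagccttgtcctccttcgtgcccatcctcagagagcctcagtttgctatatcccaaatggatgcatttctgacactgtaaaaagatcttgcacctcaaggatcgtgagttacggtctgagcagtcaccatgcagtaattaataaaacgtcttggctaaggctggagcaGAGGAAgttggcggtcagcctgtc
Ptgs2: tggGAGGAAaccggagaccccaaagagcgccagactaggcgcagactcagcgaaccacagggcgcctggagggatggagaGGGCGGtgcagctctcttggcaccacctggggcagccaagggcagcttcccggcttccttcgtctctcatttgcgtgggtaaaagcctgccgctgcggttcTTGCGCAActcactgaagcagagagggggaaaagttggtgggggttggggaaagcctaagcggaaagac
Hpgds: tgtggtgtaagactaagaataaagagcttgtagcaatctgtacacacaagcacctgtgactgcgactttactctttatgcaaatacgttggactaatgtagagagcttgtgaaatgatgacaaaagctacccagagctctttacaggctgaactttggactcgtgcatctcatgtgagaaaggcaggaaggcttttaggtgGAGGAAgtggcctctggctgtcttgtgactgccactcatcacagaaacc
Hpgd: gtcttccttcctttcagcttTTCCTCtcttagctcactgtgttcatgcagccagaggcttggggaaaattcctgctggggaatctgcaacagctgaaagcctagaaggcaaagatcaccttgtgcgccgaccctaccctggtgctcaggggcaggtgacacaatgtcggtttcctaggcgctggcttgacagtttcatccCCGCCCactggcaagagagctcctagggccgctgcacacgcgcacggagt
The motifs were the TATA box core TATAAA, the C/EBP palindrome TTGCGCAA, the E-box CACGTG, the GC box core CCGCCC and the PU.1 core GAGGAA. The palindrome TTGCGCAA stood only in the Ptgs2 window, beginning 69 bases before the start, and was held by 0.164% of 32851 promoter windows of the same length. Each of the 4 windows held GAGGAA on 1 strand, as did 23.3% of all windows. CCGCCC stood in the Ptgs2 and Hpgd windows and in 32.7% of all windows. TATAAA (12.4% of all windows) and CACGTG (6.02%) were in none of the 4. No motif match overlapped another, and a match of letters does not show that a factor binds there.

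The genes differed in their leading cell class. By mean level, Ptgs2 was highest in neutrophil-like cells, Hpgds and Hpgd in macrophage-like cells, Ptger3 in intercalated-like and thick ascending limb-like cells, Ptgds in parietal epithelium-like cells, and Ptgs1 and Ptges in connecting tubule and principal-like cells and in urothelium-like cells. Neutrophil-like cells made up 17.9% of all cells and held 61.4% of all Ptgs2 UMIs, but this share was 56.2%, 83.6%, 24.6% and 29.5% in mice 1 to 4. In mouse 4 dendritic-like cells held 38.65%. Of Ptgs1 UMIs, endothelial-like cells held 30.8% and connecting tubule and principal-like cells 16.1%. Parietal epithelium-like cells made up 0.830% of cells and held 55.8% of Ptgds UMIs (31.8% to 67.5% by mouse). Intercalated-like cells made up 1.54% of cells and held 46.0% of Ptger3 UMIs (20.4% to 78.6% by mouse), and thick ascending limb-like cells held a further 37.7% (13.1% to 51.15%). Unnamed clusters held 21.8% of Ptgs2, 31.6% of Hpgd and 34.6% of Hpgds UMIs, most of them in 1 cluster with markers of both macrophages and neutrophils. In mouse 1 the Hpgd and Hpgds shares were 66.8% and 65.8%. That cluster, cluster 15, held 5958 Ptgs2 UMIs in mouse 1 and 1281 in mouse 2.

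**Figure D1:**
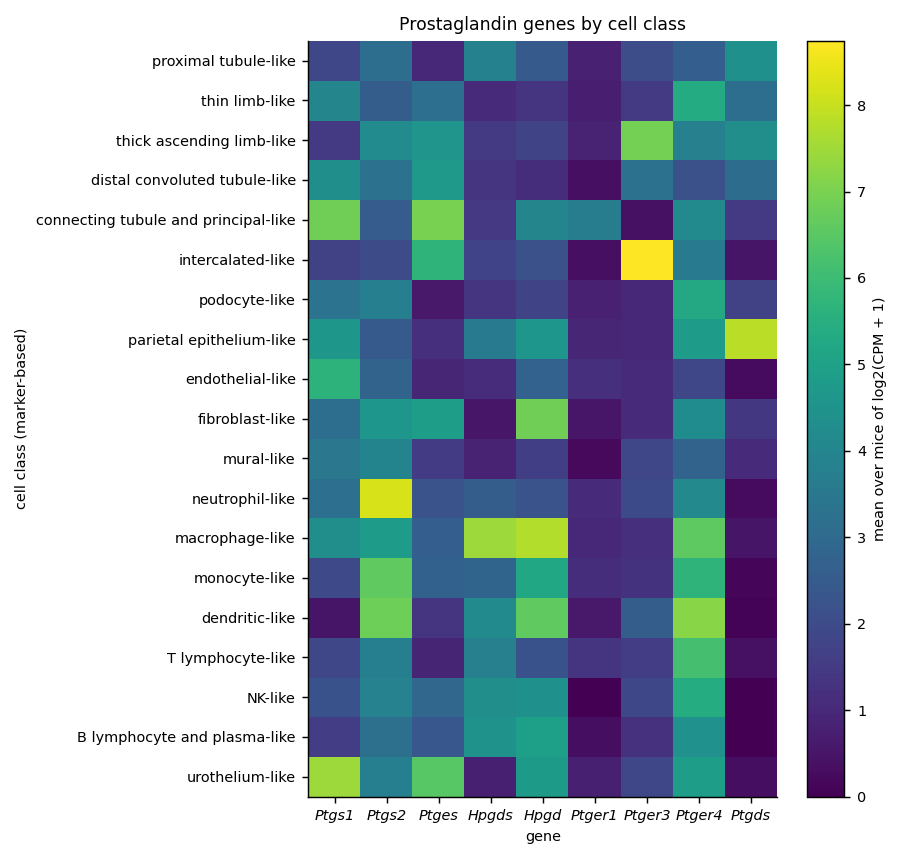
Level of each gene (columns) in each of 19 marker-based cell classes (rows), as the mean over mice of log2(CPM + 1), shown by colour; the NK-like class rests on 1 mouse and all others on 4. Read down a column: Ptger3 peaks in the intercalated-like row, Ptgds in the parietal epithelium-like row and Ptgs2 in the neutrophil-like row.

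Ptgs1, the constitutive cyclooxygenase, was highest in urothelium-like cells, with 205, 283, 111 and 152 CPM in mice 1 to 4, from 11, 17, 97 and 70 cells. Next came connecting tubule and principal-like cells with 208, 131, 71.8 and 88.1 CPM, from 63, 26, 153 and 746 cells, so the ranges of these classes overlapped. In the thick ascending limb-like class the values were 3.63, 3.02, 1.02 and 0.691 CPM. Every connecting tubule and principal-like value lay above every thick ascending limb-like value, and the log2 fold change was 5.62 ± 0.23 (SE; edgeR's quasi-likelihood test with mouse as a block, adjusted p = 2.375e-06 by Benjamini-Hochberg over all genes tested). Ptgs1 was not tested between thick ascending limb-like and proximal tubule-like cells, where it averaged 2.09 ± 1.46 and 2.98 ± 1.99 CPM and passed no filter on low counts.

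Outside the epithelium Ptgs1 had its highest mean in endothelial-like cells. Fibroblast-like and mural-like cells summed had 13.4, 18.8, 2.61 and 29.9 CPM, against 104, 98.6, 10.4 and 52.9 CPM in endothelial-like cells. The stromal value was lower in each mouse, although the ranges overlapped through mouse 3, and Ptgs1 was called lower (log2 fold change -2.17 ± 0.30 SE, adjusted p = 0.001901). With cells thinned to 1000 UMIs the same change was -1.59 and was no longer called (adjusted p = 0.0732). Within the endothelial-like class, cluster 3, led by Plvap, had 119, 104 and 124 CPM in mice 1, 2 and 4, and cluster 5, led by Gpihbp1, had 68.8, 68.7 and 50.9 CPM. Both endothelial-marked clusters of mouse 3 were below these, with 10.1 CPM in cluster 19 and 20.6 CPM in the unnamed cluster 2. Macrophage-like cells had 76.3, 60.7, 1.03 and 15.9 CPM, with mouse 3 lowest. Over neutrophil-like cells, macrophage-like and monocyte-like cells summed were not called for Ptgs1 (log2 fold change 0.47 ± 0.86 SE, adjusted p = 0.675); without mouse 3 the value was 1.80 and was called (adjusted p = 0.0003323), and without mouse 1 or mouse 2 it was -0.30.

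Ptgs2, the inducible cyclooxygenase, was highest in neutrophil-like cells. There it had 620.4, 512, 152 and 159 CPM in mice 1 to 4, the last from 61 UMIs in 201 cells. The mouse 3 cells were mostly in clusters 18 and 39, which the other mice hardly filled. Macrophage-like and monocyte-like cells summed had 179.6, 59.3, 55.7 and 5.73 CPM against those neutrophil-like values. The summed class lay below the neutrophil-like class in all 4 mice, by a log2 fold change of -3.40 ± 0.52 (SE, adjusted p = 0.003094). Apart from the summed class, monocyte-like cells had 383, 194.5, 24.5 and 46.2 CPM and dendritic-like cells had 155, 165, 195 and 29.7 CPM. The dendritic-like values came from 11, 32, 402 and 628 cells. A Ptgs2 UMI was found in 43.4% ± 21.5 of neutrophil-like cells and in 3.46% ± 3.12 of proximal tubule-like cells, at median depths of 1754 to 7036 and 2006 to 4638 UMIs per cell. After thinning to 1000 UMIs these shares were 22.5% and 0.966%.

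Summed immune classes had 492, 355, 81.8 and 11.5 CPM of Ptgs2, against 24.7, 18.5, 9.07 and 1.53 CPM in summed tubular classes. The immune value was higher in 4 of 4 mice (log2 fold change 4.07 ± 0.41 SE, adjusted p = 9.993e-05), and the order of the mice was the same in both compartments. The immune sum mixes classes in proportions that differ between mice. Neutrophil-like cells were 2352 of 3340, 3769 of 5445, 983 of 5293 and 201 of 6205 immune cells in mice 1 to 4. Low Ptgs2 counts in tubular cells stood beside counts of S100a8, a neutrophil gene. Proximal tubule-like cells held 32.9, 57.6, 12.3 and 39.4 Ptgs2 UMIs per 1000 S100a8 UMIs, against 48.1, 34.7, 11.2 and 2.41 in neutrophil-like cells. The ratio was higher in neutrophil-like cells in mouse 1 and lower in mice 2, 3 and 4, and the part of free neutrophil RNA in the proximal tubule values was not tested further. Thick ascending limb-like cells held 77.0, 74.8, 92.9 and 22.7 Ptgs2 UMIs per 1000 S100a8 UMIs, above the neutrophil-like ratio in each mouse.

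Within the nephron, Ptgs2 had 35.1, 23.0, 14.6 and 8.29 CPM in the thick ascending limb-like class, against 21.0, 29.0, 2.97 and 1.42 CPM in proximal tubule-like cells. These ranges overlapped, mouse 2 went the other way, and the call was marginal (log2 fold change 1.21 ± 0.41 SE, adjusted p = 0.0436); without mouse 1, 3 or 4 it was lost (adjusted p = 0.0774, 0.0798 and 0.119). For scale, T lymphocyte-like cells had 19.5 ± 13.5 CPM and the whole thick ascending limb-like class 20.3 ± 11.6 CPM. The connecting tubule and principal-like class had 20.6, 2.56, 10.5 and 0.349 CPM of Ptgs2 and was called lower than thick ascending limb-like cells (log2 fold change -1.63 ± 0.52 SE, adjusted p = 0.0458). Without mouse 1, 2 or 4 that call was lost too (adjusted p = 0.0749, 0.124 and 0.0876).

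Splitting the thick ascending limb-like cells by Nos1, the neuronal nitric oxide synthase that marks macula densa cells, separated cells that differed in Ptgs2. The 23, 12, 26 and 8 cells with a Nos1 UMI had 79.4, 82.1, 90.6 and 172 CPM of Ptgs2, against 32.9, 18.0, 10.5 and 1.44 CPM in the cells without one. The groups did not overlap, and the cells with a Nos1 UMI were higher in 4 of 4 mice, with a mean difference in log2(CPM + 1) of 3.13 ± 2.14 (SD, n = 4; exact sign-flip permutation test, two-sided p = 0.13, the smallest that 4 mice allow). The same cells had 79.4, 145, 106 and 138 CPM of Ptges, against 11.4, 17.6, 30.4 and 13.7 CPM, again with no overlap and higher in 4 of 4 mice (mean difference 2.67 ± 0.64, exact p = 0.13). Ptger4 averaged 23.4 ± 7.43 CPM in cells with a Nos1 UMI and 13.4 ± 5.36 CPM in the rest, higher in 4 of 4 mice before thinning. In mouse 4 that rests on 1 UMI in the cells with a Nos1 UMI. Cells with a Nos1 UMI were deeper, at median depths of 9879, 16310, 10440 and 5994 UMIs per cell against 5266, 5699, 5030 and 2068. After thinning only 2 to 8 such cells per mouse remained, and Ptgs2 was higher in 3 of 4 mice and at 0 UMIs in mouse 3 (exact p = 0.25). Thinned Ptges was higher in 3 of 4 mice and at 0 UMIs in mouse 2 (exact p = 0.5). Thinned Ptger4 was at 0 UMIs in the Nos1 cells of all 4 mice, for a difference of -2.93. Those cells held 8000, 4000, 3000 and 2000 UMIs of all genes, too few to expect a Ptger4 UMI at its level before thinning. The thinned difference therefore does not test the direction of Ptger4.

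**Figure D2:**
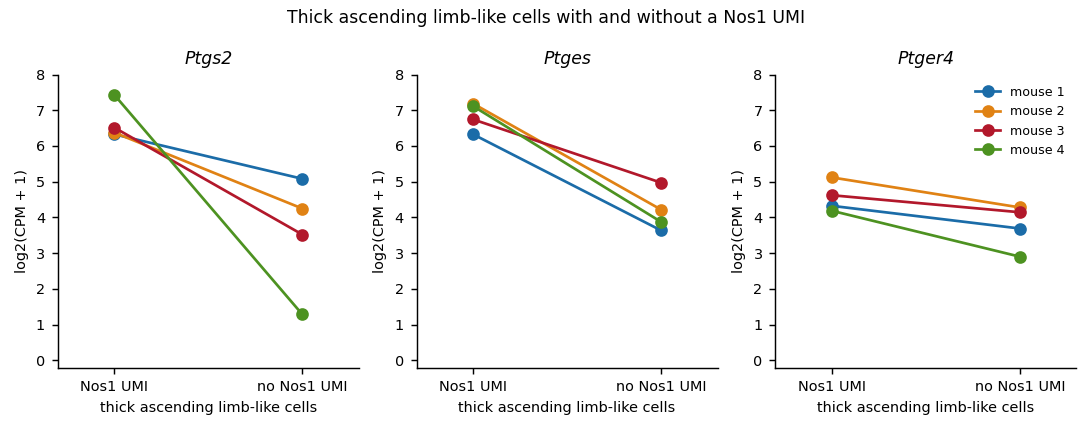
Ptgs2, Ptges and Ptger4 in thick ascending limb-like cells with a Nos1 UMI (left) and without one (right), as log2(CPM + 1) of summed UMIs; each line joins the values of 1 mouse. All 12 lines slope down to the right, and the Ptgs2 line of mouse 4, 172 against 1.44 CPM, is the steepest.

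In the stroma, fibroblast-like and mural-like cells summed had 35.4, 32.5, 78.9 and 2.72 CPM of Ptgs2, against 13.4, 4.70, 20.4 and 0.284 CPM in endothelial-like cells. The stromal value was higher in 4 of 4 mice, with overlapping ranges, at a log2 fold change of 2.03 ± 0.30 (SE, adjusted p = 0.002333). At the coarser clustering resolution of 0.5 the change was 0.75 and was not called (adjusted p = 0.249). Mouse 3 gave 816 of the 903 stromal UMIs, and its mural-like cluster 20 had 112 CPM. Fibroblast-like cells alone had 7.80, 110.2, 81.9 and 3.31 CPM, from 1, 33, 45 and 1 UMIs in 16, 35, 90 and 88 cells. Only 13 of these cells held a Ptgs2 UMI.

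Ptges, the microsomal prostaglandin E synthase coupled to cyclooxygenase 2, was highest in distal tubular and urothelium-like cells. Connecting tubule and principal-like cells had 107, 69.2, 191 and 174 CPM, against 14.7, 27.6, 34.3 and 18.7 CPM in the thick ascending limb-like class. Every mouse of the first class lay above every mouse of the second, and the log2 fold change was 2.30 ± 0.28 (SE, adjusted p = 0.0004298). The thick ascending limb-like class in turn lay above proximal tubule-like cells, which had 0.389, 0, 4.67 and 1.14 CPM from 27 UMIs in all, by a log2 fold change of 3.90 ± 0.43 (SE, adjusted p = 6.169e-05). Urothelium-like cells had 62.3, 108, 202 and 45.4 CPM and intercalated-like cells had 35.1, 21.6, 73.7 and 114 CPM, both overlapping the connecting tubule and principal-like range.

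Among non-epithelial cells, Ptges was called higher in summed fibroblast-like and mural-like cells than in endothelial-like cells. The values were 6.10, 11.95, 5.89 and 16.3 CPM against 1.12, 0.277, 0.927 and 1.71 CPM, with no overlap (log2 fold change 3.35 ± 0.56 SE, adjusted p = 0.004385). Mural-like cells alone averaged 2.46 ± 2.03 CPM (0 to 4.90), overlapping the endothelial-like values, and fibroblast-like cells averaged 31.75 ± 18.98 CPM (19.87 to 60.1). Myeloid Ptges belonged mainly to mouse 3. Its monocyte-like cells had 67.4 CPM, against 0 to 4.84 CPM in the other 3 mice, and its neutrophil-like cells had 37.1 CPM, against 0.439 to 2.61 CPM. Those cells of mouse 3 sat mostly in clusters 10 (led by Saa3) and 18, which the other mice hardly filled. Macrophage-like and monocyte-like cells summed were not called over neutrophil-like cells (log2 fold change 0.66 ± 0.45 SE, adjusted p = 0.255); without mouse 3 the value was 1.36 and was called (adjusted p = 0.0208).

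**Figure D3:**
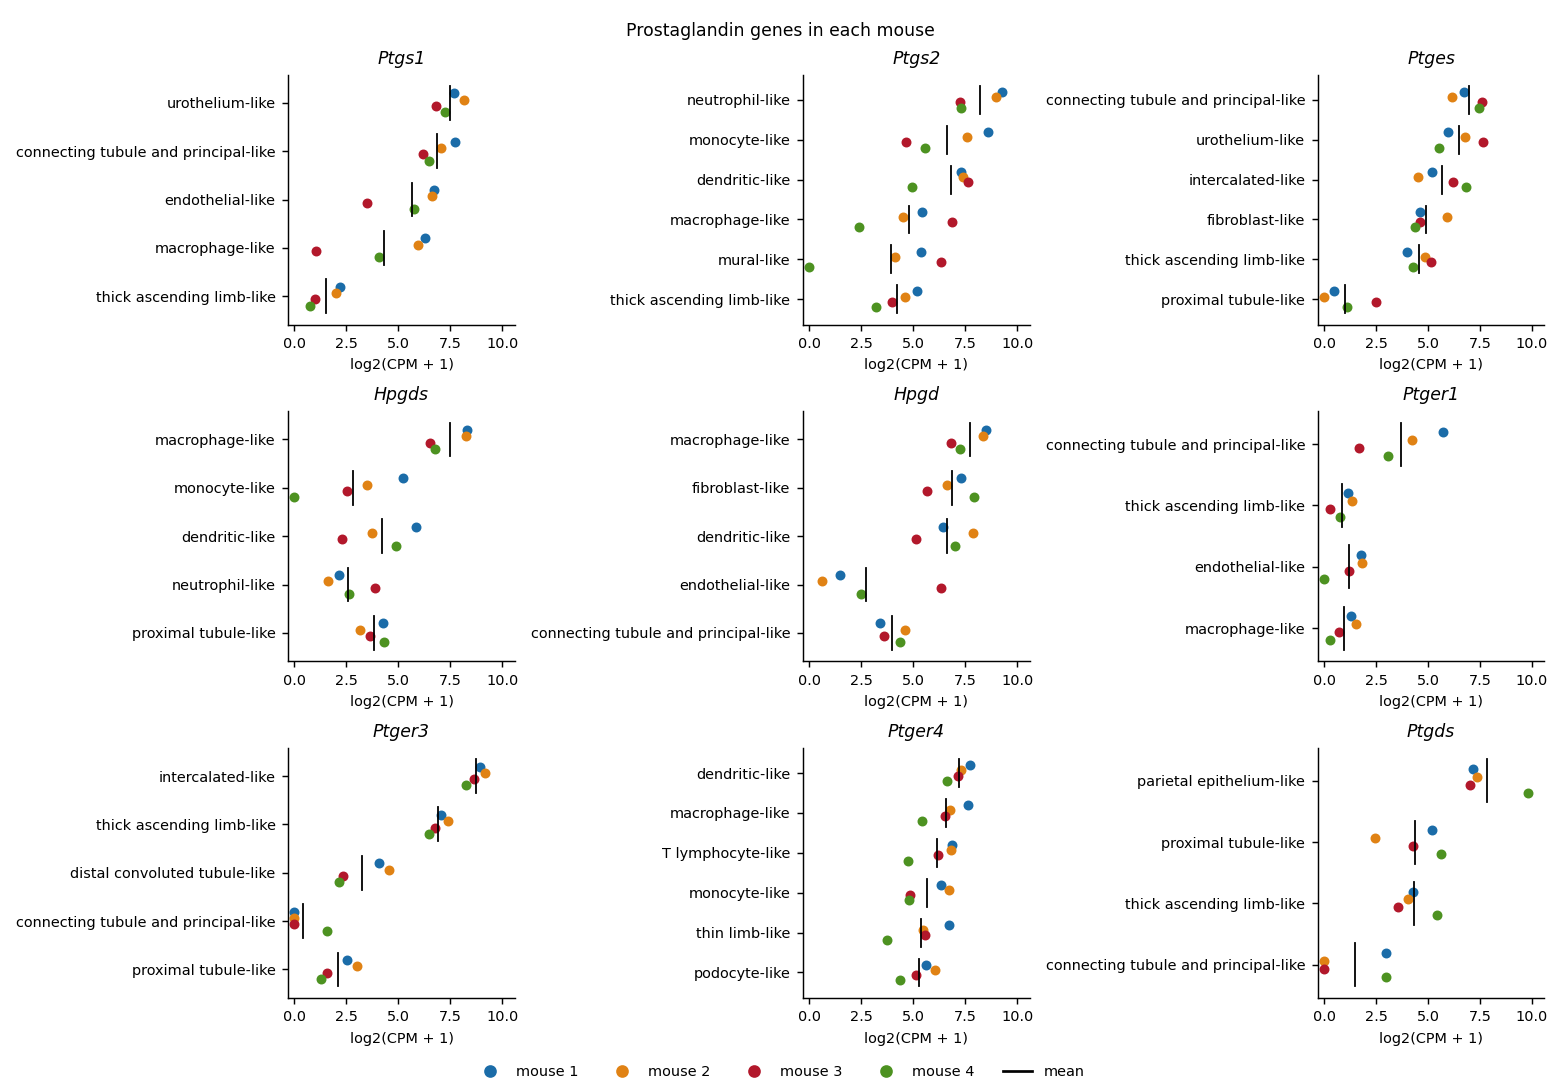
Level of each gene in its leading cell classes and in comparison classes, as log2(CPM + 1); points are single mice by colour and black bars their mean. In the Ptger3 panel the intercalated-like points (299 to 582 CPM) lie right of all thick ascending limb-like points (87.0 to 165 CPM), and in the Ptgs1 panel mouse 3 lies far left of the others in endothelial-like and macrophage-like cells.

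Hpgds, the haematopoietic prostaglandin D synthase, was highest in macrophage-like cells. Its level there was 312, 307, 92.0 and 106.5 CPM in mice 1 to 4. The next single class by mean, B lymphocyte and plasma-like, averaged 40.1 CPM and rested on 11 UMIs in 2 cells of mouse 1. Summed with monocyte-like cells, the class had 201, 243, 35.1 and 103 CPM, against 3.44, 2.06, 13.5 and 5.22 CPM in neutrophil-like cells. The groups did not overlap, and the log2 fold change was 4.09 ± 0.92 (SE, adjusted p = 0.009412); without mouse 4 the call was lost (adjusted p = 0.0512). Within the class, cluster 8, led by Mrc1, had 322, 310.4 and 128 CPM in mice 1, 2 and 4, against 157, 134 and 106 CPM in cluster 6, led by C1qa.

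In epithelium Hpgds was sparse. The thick ascending limb-like class had 3.48, 1.89, 1.83 and 0.691 CPM, against 17.9, 7.92, 11.3 and 18.8 CPM in proximal tubule-like cells. These did not overlap, and Hpgds was called lower in the thick ascending limb-like class (log2 fold change -2.47 ± 0.37 SE, adjusted p = 0.0004412). Proximal tubule-like cells averaged 14.0 ± 5.25 CPM and T lymphocyte-like cells 15.3 ± 10.1 CPM. Per 1000 UMIs of the macrophage gene C1qb, proximal tubule-like cells held 260, 1500, 736 and 99.1 Hpgds UMIs, against 122, 102, 65.3 and 12.7 in macrophage-like cells, a higher ratio in each mouse.

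Ptgds, the lipocalin-type prostaglandin D synthase, was highest in the parietal epithelium-like class, the cells lining Bowman's capsule. It had 142, 162, 131 and 888 CPM there, and every mouse lay above the highest value of any other class, 48.9 CPM in proximal tubule-like cells of mouse 4. A Ptgds UMI was found in 39.5% ± 11.2 of parietal epithelium-like cells and in 0.140% ± 0.164 of T lymphocyte-like cells, at median depths of 6526 to 16640 and 1698 to 4901 UMIs per cell, and in 13.4% and 0.0996% after thinning. Values in connecting tubule and principal-like cells were 6.88, 0, 0 and 6.98 CPM, against 18.2, 15.5, 10.96 and 42.8 CPM in the thick ascending limb-like class, with no overlap (log2 fold change -2.83 ± 0.50 SE, adjusted p = 0.003325). Ptgds was not called in thick ascending limb-like over proximal tubule-like cells (log2 fold change -0.15 ± 0.32 SE, adjusted p = 0.746). Immune classes summed held 0.273, 0.201, 0.333 and 0.200 CPM, against 16.6, 8.34, 11.5 and 20.6 CPM in tubular classes (log2 fold change -5.30 ± 0.41 SE, adjusted p = 3.198e-05).

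Hpgd shared its leading class with Hpgds but reached more cell types. Macrophage-like cells had 358, 323, 112 and 149.7 CPM, fibroblast-like cells 156, 96.8, 49.1 and 238 CPM, and dendritic-like cells 84.5, 235, 34.1 and 130.1 CPM, with overlapping ranges. Mouse 1 gave only 16 fibroblast-like and 11 dendritic-like cells. Macrophage-like and monocyte-like cells summed had 248, 264, 52.9 and 145 CPM, against 4.19, 2.90, 23.7 and 0 CPM in neutrophil-like cells. They did not overlap (log2 fold change 4.24 ± 1.00 SE, adjusted p = 0.0109), and without mouse 4, whose neutrophil-like cells held no Hpgd UMI, the change was 3.94 with an adjusted p of 0.0569. In the dendritic-like class, cluster 23 had 243 and 133 CPM in mice 2 and 4, and cluster 28 had 31.2 and 24.9 CPM in mice 3 and 4.

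Endothelial-like cells of mouse 3 had 80.9 CPM of Hpgd, against 1.79, 0.553 and 4.55 CPM in mice 1, 2 and 4. Those cells are cluster 19, whereas the larger endothelial-marked cluster 2 of the same mouse had 2.59 CPM. In the other mice the unnamed cluster 29, which carried 7 endothelial markers, had 164, 74.8 and 195 CPM. It held 92, 104 and 149 cells of mice 1, 2 and 4 and none of mouse 3. The endothelial-like values of those mice, here and in the next comparison, leave these cells out. The comparison of fibroblast-like and mural-like cells, at 25.6, 23.9, 5.12 and 195.5 CPM, with endothelial-like cells was not called (log2 fold change 3.06 ± 1.85 SE, adjusted p = 0.270); without mouse 3 the change was 4.96 (adjusted p = 1.741e-05), and DESeq2 on all 4 mice called it too (3.75, adjusted p = 0.004079). The summed stromal class held 1208 mural-like and 90 fibroblast-like cells in mouse 3, and 13 and 88 in mouse 4. Over the tubular classes, at 4.15, 8.34, 3.31 and 10.4 CPM, the same summed stromal class was higher in 4 of 4 mice (log2 fold change 2.06 ± 0.49 SE, adjusted p = 0.00877). Mural-like cells alone averaged 3.255 ± 3.93 CPM of Hpgd, below the tubular mean of 6.558 ± 3.395 CPM, and fibroblast-like cells averaged 135.1 ± 81.59 CPM. Along the nephron, connecting tubule and principal-like cells had 9.46, 23.1, 11.1 and 19.9 CPM, against 3.33, 3.78, 1.22 and 2.07 CPM in the thick ascending limb-like class. The groups did not overlap (log2 fold change 2.30 ± 0.39 SE, adjusted p = 0.002987).

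**Figure D4:**
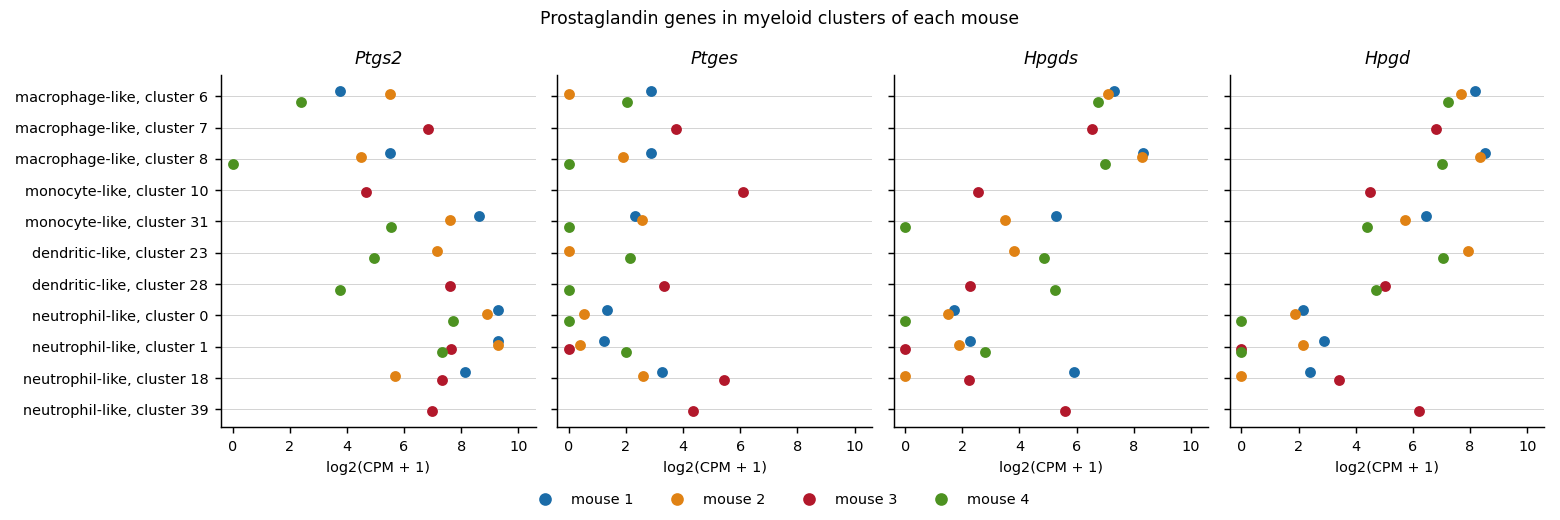
Ptgs2, Ptges, Hpgds and Hpgd in each myeloid cluster, as log2(CPM + 1), for mice with at least 10 cells of the cluster; points are single mice by colour. Hpgds and Hpgd points of the macrophage-like clusters (at least 92.0 and 112 CPM) lie right of every neutrophil-like point (at most 59.3 and 73.2 CPM), and mouse 3 is alone in clusters 7, 10 and 39.

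Ptger3, the receptor EP3, which couples to inhibition of cyclic AMP, split the distal nephron sharply. Intercalated-like cells, the acid- and base-secreting cells of the collecting duct, had 491, 582, 392 and 299 CPM. Thick ascending limb-like cells had 132, 165, 108 and 87.0 CPM, below every intercalated-like value and above every value of the distal convoluted tubule-like class (3.35 to 22.3 CPM). At the other end, connecting tubule and principal-like cells had 0, 0, 0 and 1.92 CPM, from 11 UMIs in 746 cells of mouse 4. Against thick ascending limb-like cells that was a log2 fold change of -6.72 ± 0.47 (SE, adjusted p = 2.171e-05), which rests on counts of 0 in 3 mice and so depends on the prior count of the fit. The thick ascending limb-like class exceeded proximal tubule-like cells, at 4.67, 7.04, 1.91 and 1.42 CPM, without overlap (log2 fold change 5.42 ± 0.27 SE, adjusted p = 3.608e-07).

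A Ptger3 UMI was found in 75.3% ± 10.2 of intercalated-like cells and in 0.682% ± 0.613 of T lymphocyte-like cells, at median depths of 6208 to 14990 and 1698 to 4901 UMIs per cell. After thinning to 1000 UMIs the shares were 29.95% and 0.162%. Summed immune classes held little Ptger3, at 3.13 ± 1.39 CPM against 99.7 ± 46.8 CPM in summed tubular classes (log2 fold change -4.63 ± 0.27 SE, adjusted p = 1.806e-05). Among unnamed clusters, cluster 42, with mural markers and 33 and 42 cells in mice 1 and 2, had 68.5 and 118 CPM of Ptger3, from 27 and 73 UMIs, while named mural-like cells averaged 5.68 ± 8.61 CPM. The call between macrophage-like and monocyte-like cells, at 1.94 ± 1.58 CPM, and neutrophil-like cells, at 3.31 ± 1.95 CPM, was marginal (log2 fold change -1.63 ± 0.55 SE, adjusted p = 0.0406). It was lost without mouse 1, 2 or 4 (adjusted p = 0.0869, 0.271 and 0.0715).

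Ptger1, the calcium-coupled receptor EP1, was the sparsest of the 9 genes, with 448 UMIs in all cells. It was highest in connecting tubule and principal-like cells, which had 52.5, 17.9, 2.21 and 7.51 CPM, against 1.21, 1.51, 0.203 and 0.691 CPM in the thick ascending limb-like class. Every mouse of the first class lay above the second, but the gene was below the filter on low counts and was not tested in the main analysis. Mouse 1 gave 61 of the 115 UMIs in connecting tubule and principal-like cells. No other single class averaged above 1.84 CPM.

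Ptger4, the cyclic AMP-raising receptor EP4, was spread over immune cells. Dendritic-like cells had 211, 157, 142 and 97.9 CPM, macrophage-like cells 196, 108, 91.4 and 42.2 CPM, and T lymphocyte-like cells 117, 112, 72.4 and 25.9 CPM, with mouse 4 lowest and mouse 1 highest in each of these classes. The dendritic-like value of mouse 1 came from 11 cells. Mouse 4 filled other clusters than mice 1 and 2: 1688 of its macrophage-like cells were in cluster 6, with 40.6 CPM, and its 17 cells in cluster 8 had 340.3 CPM, against 201 and 109 CPM there in mice 1 and 2. Its T lymphocyte-like cells were mostly in clusters 4 and 9, with 23.0 and 28.1 CPM, and its 42 cells in cluster 11, the main one of the other mice, had 157 CPM. Macrophage-like and monocyte-like cells summed had 149, 107, 50.1 and 41.7 CPM, against 13.01, 14.1, 23.6 and 15.7 CPM in neutrophil-like cells. The groups did not overlap (log2 fold change 1.60 ± 0.40 SE, adjusted p = 0.0133), although the call was lost without mouse 1 or mouse 2 (adjusted p = 0.0741 and 0.0551). Immune classes summed had 48.2, 46.3, 53.7 and 42.0 CPM, against 12.7, 15.8, 20.8 and 10.7 CPM in tubular classes and no overlap (log2 fold change 2.07 ± 0.24 SE, adjusted p = 0.0002402).

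In the nephron, thick ascending limb-like cells had 12.3, 19.6, 17.1 and 6.91 CPM of Ptger4, against 5.45, 4.40, 4.67 and 5.98 CPM in proximal tubule-like cells. These did not overlap (log2 fold change 1.53 ± 0.34 SE, adjusted p = 0.005062). Thin limb-like cells averaged 51.4 ± 37.8 CPM and podocyte-like cells 41.5 ± 19.6 CPM. The connecting tubule and principal-like class had 12.04, 5.12, 75.1 and 14.7 CPM and was not called against thick ascending limb-like cells (log2 fold change 0.61 ± 0.50 SE, adjusted p = 0.409); without mouse 3 the change was -0.17. Fibroblast-like and mural-like cells averaged 13.2 ± 6.48 CPM and endothelial-like cells 3.11 ± 2.51 CPM, just short of a call (log2 fold change 2.03 ± 0.63 SE, adjusted p = 0.0507); without mouse 3 the change was 3.04 and was called (adjusted p = 0.001161), and DESeq2 on all 4 mice called it too (2.16, adjusted p = 0.005265).

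Counted over the comparisons, a gene was called where the adjusted p was under 0.05 and the change at least 2-fold, and each count is read against the share of all tested genes called. Genes and comparisons were chosen with earlier results of these data known, and some classes as known sites of these genes. The counts therefore do not test the genes as a set. In connecting tubule and principal-like over thick ascending limb-like cells, 6 of the 7 genes tested were called (3 higher, 3 lower), where 17.9% of all tested genes were called, 8.19% higher and 9.68% lower. In thick ascending limb-like over proximal tubule-like cells, 5 of 7 were called (4 higher, 1 lower), where 25.4% of all tested genes were, 12.9% higher and 12.6% lower. In macrophage-like and monocyte-like over neutrophil-like cells, 5 of 8 were called (3 higher, 2 lower), where 42.9% of all were, 23.4% higher and 19.6% lower, a large background for a count of 5.

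Fibroblast-like and mural-like over endothelial-like cells gave 3 of 5 called (2 higher, 1 lower), against 23.4% of all tested genes, 13.3% higher and 10.1% lower. Immune over tubular classes gave 7 of 9 called (Ptgs2, Hpgds, Hpgd and Ptger4 higher, Ptges, Ptger3 and Ptgds lower), against 47.4% of all, 23.2% higher and 24.2% lower. Fibroblast-like and mural-like over tubular classes gave 5 of 8 called (Hpgd higher, Ptges, Hpgds, Ptger3 and Ptgds lower), against 29.7% of all, 11.7% higher and 17.9% lower. In that comparison Hpgds rested on 16 stromal UMIs and lost its call without mouse 1, 3 or 4 (adjusted p = 0.124, 0.205 and 0.0639). The median log2 fold change of the genes tested was 0.61, 1.21, 0.56, 2.03, -0.58 and -1.45 in these 6 comparisons, in the order given, beside medians of -0.02, 0.00, 0.02, -0.04, 0.03 and -0.11 over all genes tested. These comparisons share cell classes, so their counts are not independent.

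**Figure D5:**
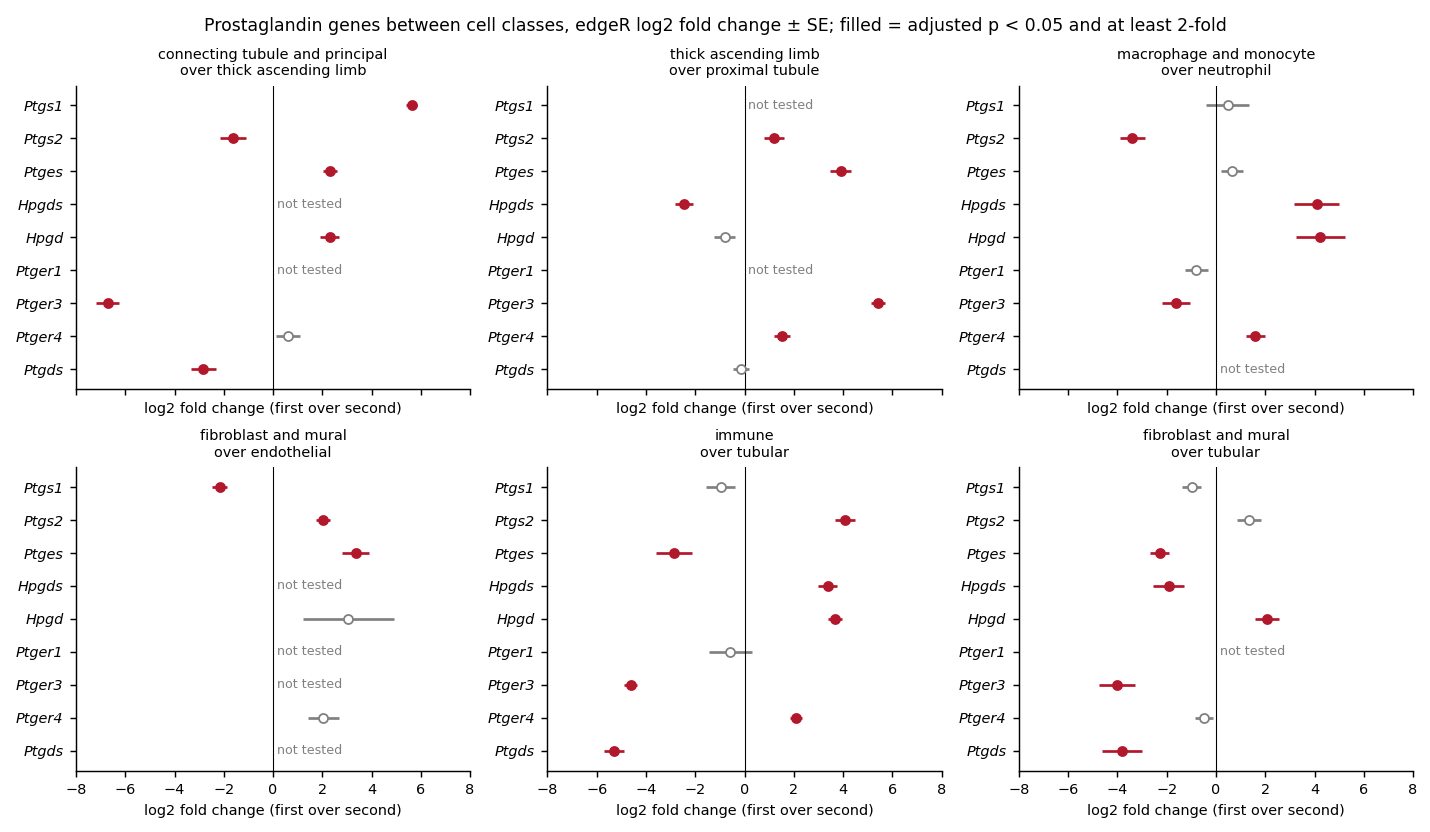
Log2 fold change (first class over second) of the 9 genes in 6 comparisons, with bars of ± 1 SE derived from edgeR's test statistic. Filled red points had an adjusted p under 0.05 and at least a 2-fold change, and genes under the filter on low counts are written as not tested. Ptger3 lies at -6.72 in connecting tubule and principal-like over thick ascending limb-like cells and at 5.42 in thick ascending limb-like over proximal tubule-like cells.

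A further 34 genes of arachidonate release, prostanoid synthesis, breakdown, transport and reception, and of the leukotriene branch give the surroundings of the route. In connecting tubule and principal-like over thick ascending limb-like cells, 3 of the 17 tested were higher and 4 lower. Akr1b3, an aldose reductase that can make prostaglandin F2α, averaged 439.6 ± 381 CPM against 33.6 ± 8.71 CPM (log2 fold change 3.15 ± 0.50 SE, adjusted p = 0.001914). Ptgfr, the prostaglandin F receptor, averaged 84.5 ± 19.8 CPM against 16.6 ± 10.4 CPM (log2 fold change 2.39 ± 0.43 SE, adjusted p = 0.003543). Slco2a1, the prostaglandin transporter, averaged 1.70 ± 1.97 CPM against 20.2 ± 3.84 CPM (log2 fold change -3.22 ± 0.52 SE, adjusted p = 0.002234). The others called were Cysltr1, a leukotriene receptor, higher (2.85), and Tbxas1, thromboxane synthase, Alox5ap and Pla2g12a lower (-2.19, -1.30 and -1.09).

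In thick ascending limb-like over proximal tubule-like cells, 5 of 17 tested were higher and 3 lower. Pla2g4a, the cytosolic phospholipase A2 that releases arachidonate, averaged 37.9 ± 18.8 CPM against 6.25 ± 5.02 CPM (log2 fold change 2.62 ± 0.33 SE, adjusted p = 0.0001555). Ptgfr, Akr1b8, Ltc4s and Tbxas1 were also higher (3.77, 2.21, 2.12 and 1.79), and Prxl2b, Cbr1 and Abcc4 lower (-2.70, -1.94 and -1.31). Over neutrophil-like cells, macrophage-like and monocyte-like cells had 8 of 22 tested higher and 3 lower. The 3 lower genes all belong to the leukotriene branch, which turns arachidonate into leukotrienes, while Cysltr1 and Ltc4s of the same branch were higher. Alox5, 5-lipoxygenase, averaged 13.8 ± 19.4 CPM against 105 ± 48.2 CPM (log2 fold change -4.67 ± 0.59 SE, adjusted p = 0.001963), Alox5ap was lower by -2.59 and Ltb4r1, the leukotriene B4 receptor, by -1.65. Higher were Cysltr1 (3.12), Prxl2b (2.88), Akr1b3 (2.46), Ltc4s (2.13), Tbxas1 (1.85), Ptgr1 (1.64), Pla2g12a (1.51) and Pla2g4a (1.43).

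Fibroblast-like and mural-like over endothelial-like cells had 7 of 22 tested higher and 3 lower. The prostacyclin pair stood at the top: Ptgis, prostacyclin synthase, averaged 56.3 ± 43.1 CPM against 0.885 ± 0.740 CPM (log2 fold change 5.89 ± 0.58 SE, adjusted p = 0.0004037), and Ptgir, the prostacyclin receptor, averaged 35.1 ± 22.8 CPM against 0.381 ± 0.621 CPM (log2 fold change 6.64 ± 0.61 SE, adjusted p = 0.0003143). Tbxa2r, the thromboxane receptor, was lower (-3.24), as were Alox12 (-5.92) and Abcc4, a transporter that exports prostaglandins (-2.49). Akr1b8, Ptgr1, Ltb4r1, Prxl2b and Pla2g4a were higher (4.28, 3.18, 1.82, 1.52 and 1.39).

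Immune over tubular classes had 9 of 25 tested higher and 8 lower. All 5 leukotriene genes among the 9 were at least 3.96 higher on the log2 scale (Alox5ap 5.13, Ltb4r1 4.75, Alox5 4.27, Cysltr1 3.99 and Cysltr2 3.96), and Ptger2, the EP2 receptor, was higher by 4.20. Tbxas1 (2.60), Tbxa2r (1.65) and Pla2g4a (1.42) were higher too. Ptgfr was lower (-5.93), as were Akr1b8 (-5.27), Alox12 (-4.31), Slco2a1 (-2.84), Pla2g12a (-2.68), Cbr1 (-2.62), Ptges2 (-1.43) and Ptgr2 (-1.11). Fibroblast-like and mural-like over tubular classes had 4 of 26 tested higher and 8 lower, with Ptgir 7.76, Ptgis 7.64, Slco2a1 3.04 and Cysltr2 2.80 higher, and Ptgfr -6.35, Alox12 -3.45, Ltc4s -3.31 and Cbr1 -1.96 among those lower.

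The genes most like each of the 9 across the 19 classes were found by Pearson's r of mean log2(CPM + 1), among 12334 genes that reached 20 CPM in some class. The classes share libraries, and r is a description. For Ptger3 these were Rtl4 (r = 0.94), Calcr, the calcitonin receptor (0.92), and Slc4a9, an intercalated-cell anion exchanger that served as a naming marker (0.92). For Hpgds they were C1qb and C1qa (0.88 each), complement genes that served as macrophage markers, and Ppp1r21 (0.88). Ptgs2 was closest to Gm37558 (0.93), Rasgrp4 (0.91) and Gm45717 (0.91), all highest in neutrophil-like cells. Ptgds was closest to Cdhr5 (0.92), Rdh16 (0.90) and Kcnip4 (0.89), and Ptges to Epb41l4b (0.92), Fam83b (0.89) and Tfap2a (0.86). The closest genes had lower r for Ptgs1 (Cracr2b, 0.81), Hpgd (Pid1, 0.84) and Ptger4 (Dapp1, 0.84), the genes spread over more than 1 kind of cell, and for Ptger1 r was 0.88 (Mgat4c).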

How the data were processed

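Per the labels, kidneys were dissociated and run as 10x Genomics libraries, and the submitters' processing notes name Cell Ranger 9.0.1 and Seurat 4.1.1; no genome build is given there. Raw UMI counts per gene and barcode are what the deposited matrices hold, per the file headers. From those counts, cells with at least 500 UMIs, 300 genes and under 50% mitochondrial UMIs were kept. Total counts were 66762741, 64757026, 105436725 and 36831995 UMIs in mice 1 to 4. Every pair of libraries differed beyond sampling noise (lowest chi-square 104.6 per degree of freedom). Scrublet called 0, 107, 1 and 1 doublets, so it did not work in mice 1, 3 and 4; called cells were removed.

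Cells were clustered (scanpy 1.11.5, leidenalg 0.10.2; 2000 variable genes, 30 components, 15 neighbours, resolution 1) without prostanoid, leukotriene, mitochondrial and ribosomal genes. A cluster was named where at least 3 markers had UMIs in 20% of its cells and were 2-fold higher than elsewhere. A name was barred by 50% of an unrelated type's markers, by 2 unrelated types or by a median doublet score over 0.15. It was also barred where the leading genes held more markers of an unrelated type than of its own, even if only 1. The bars were set after clusters had been seen, and rebuilt names can differ from the study's own.

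Counts were summed per mouse and class (at least 10 cells) and compared with edgeR 4.0.16's quasi-likelihood test (TMM, its filter on low counts, mouse as a block, Benjamini-Hochberg over all genes tested). The mouse pairs both classes, since they come from the same animal. That test gives no standard error, so each SE is the absolute log2 fold change divided by the square root of its F statistic. As a check of the code, counts were simulated with the same dispersion for every gene and no difference between mice. There, 81 to 95% of 4-fold and 6 to 24% of 2-fold changes were recovered at an adjusted p under 0.05. The spread between the real mice was not simulated, so these shares are not the power of the tests above. Per-cell shares were also computed after thinning to 1000 UMIs, leaving out shallower cells. Akr1b3 is listed under the symbol Akr1b1 and was matched by gene ID. Named were the 9 genes, called pathway genes with up to 4 of each list by size, and the 3 most similar genes. The genes, lists and comparisons were chosen with earlier results of these data known. Alternatives were DESeq2 1.42.0, RLE scaling, no filter, no replicate block, each mouse left out, a 20% mitochondrial limit, thinning, removal of the highest doublet scores and resolution 0.5.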

Additional observations from a re-analysis of the deposited data

Results flagged for a closer look

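Among 50 levels that averaged at least 20 CPM over 4 mice, 8 had 1 mouse far from the other 3 by Dixon's rule for outliers. That rule flags about 1 in 20 groups of normally distributed values. CPM need not be so distributed, each flagged mouse was the highest of its group, and 3 flags share a class and mouse. The count is therefore not read against that rate. Ptgds in parietal epithelium-like cells stood at 888 CPM in mouse 4, against 131 to 162 CPM in the others, from 490 UMIs in 77 cells. Hpgd in endothelial-like cells stood at 80.9 CPM in mouse 3, against 0.553 to 4.55 CPM, and the endothelial-like cells of mouse 3 form a cluster of their own. The unnamed cluster 29, with endothelial markers, is outside that class and had 164, 74.8 and 195 CPM in mice 1, 2 and 4. Ptger4 in connecting tubule and principal-like cells stood at 75.1 CPM in mouse 3, against 5.12 to 14.7 CPM. Ptgs2 in urothelium-like cells stood at 103 CPM in mouse 3, from 182 UMIs in 97 cells, against 1.47 to 13.5 CPM. Ptges in fibroblast-like cells stood at 60.1 CPM in mouse 2, from 18 UMIs in 35 cells, against 19.9 to 23.7 CPM.

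The other 3 are in the B lymphocyte and plasma-like class of mouse 1, which holds 14 cells: Ptgs2 at 110.3 CPM (10 UMIs), Hpgds at 121 CPM (11 UMIs) and Hpgd at 375 CPM (34 UMIs), each from 2 of those cells.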

How the results depend on the processing

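Of 510 recomputed log2 fold changes of the 9 genes, 453 kept direction and side of the threshold, 34 lost a call, 16 gained one and 7 changed direction, none of these 7 from a called value. The 7, with the range over the fits that leave out 1 mouse each, were Ptger4 in connecting tubule and principal over thick ascending limb (-0.17 without mouse 3, up to 1.03), Ptgds in thick ascending limb over proximal tubule (0.12 without mouse 1, down to -0.43), Ptges in macrophage and monocyte over neutrophil with no replicate block (-0.19), Ptgs1 there (-0.30 without mouse 1 or 2, up to 1.80), Ptger1 in immune over tubular (0.21 without mouse 4, down to -1.21) and Ptger4 in fibroblast and mural over tubular (0.0097 without mouse 3, down to -0.90). In the Nos1 split, thinning gave negative differences for Ptgs1 (-1.45), Ptger1 (-0.91), Ptger3 (-4.83) and Ptger4 (-2.93). The thinned Nos1 cells held no UMI of Ptgs1, Ptger1 or Ptger4 in any mouse, and 1 of Ptger3, in mouse 2. These signs therefore rest on absent UMIs and do not test direction. With 1 mouse left out Ptgs1 ranged over -0.81 to 1.28, Ptger1 over -0.090 to 1.15, Ptger3 over -0.065 to 0.74 and Ptgs2 over 2.12 to 3.76.

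Counts of genes called: connecting tubule and principal over thick ascending limb 1962, against 982 with no replicate block, 874 thinned and 1269 at resolution 0.5 (1665 to 2224 with 1 mouse left out); thick ascending limb over proximal tubule 3037, against 1603 thinned (2822 to 3354); macrophage and monocyte over neutrophil 5767, against 3095 with no block, 3370 without mouse 1 and 3031 without mouse 2 (3031 to 7096); fibroblast and mural over endothelial 2908, against 4461 with no filter, 1897 with no block and 1652 thinned (2051 to 3102); fibroblast and mural over tubular 4471, against 2552 thinned (3885 to 4643); immune over tubular 7713 (6876 to 8388). Thinning leaves fewer genes to test; the cause of the other moves was not tested. In macrophage and monocyte over neutrophil, RLE scaling moved the median log2 fold change of all genes to 0.26, against 0.02 with TMM, with 3774 higher and 2099 lower against 3138 and 2629. With no replicate block, calls were also lost for Ptgds in connecting tubule and principal over thick ascending limb (adjusted p = 0.159), Ptgs1 and Ptgs2 in fibroblast and mural over endothelial (0.106 and 0.226), Ptges in immune over tubular (0.149), and Hpgds, Hpgd and Ptgds in fibroblast and mural over tubular (0.0670, 0.0718 and 0.0988). With no filter, calls were gained for Hpgd and Ptger4 in fibroblast and mural over endothelial (2.93 and 1.93), Ptgs1 in immune over tubular (-1.001), and Ptgs1 and Ptgs2 in fibroblast and mural over tubular (-1.02 and 1.29); that fit also gave smaller p-values for genes tested in both (Ptgs1 in connecting tubule and principal over thick ascending limb, adjusted p = 1.322e-80 against 2.375e-06), so its p-values are on another scale. Ptger1, with 448 UMIs, was under the filter in 4 of 6 comparisons, and mouse 4 holds 201 neutrophil-like and 13 mural-like cells.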

Other observations

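Some unnamed clusters held clear levels of the 9 genes. Cluster 29, with 7 endothelial markers and led by Aqp1, Sox17, Gja5 and Eln, had 164, 74.8 and 195 CPM of Hpgd in mice 1, 2 and 4. Cluster 15, with macrophage and neutrophil markers together, had 367 and 305 CPM of Ptgs2 and 159 and 153 CPM of Hpgd in mice 1 and 2. Counting the unnamed clusters with endothelial markers as endothelial, an alternative chosen after seeing the data, brought Ptger4 in fibroblast and mural over endothelial to a log2 fold change of 1.52 (edgeR, adjusted p = 0.0229).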
